A study of Capra hircus with 9 samples.

Results

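The mammary gland of dairy goats was compared between the dry period, when milk removal has ended and the secretory tissue has regressed, and late gestation, when the gland has been rebuilt for the next lactation. The comparison covered every mature microRNA (miRNA) with at least 0.5 CPM (counts scaled to the library total) in at least 3 of the 6 libraries of these stages. This rule took 672 of the 1359 listed miRNAs, of which 307 were predicted from the reads by the authors' software and the others were known from miRBase. All animals were healthy Laoshan dairy goats from 1 farm, in the third parity and 4 years old on average. The dry period group (DP) was sampled 300 d postpartum and the late gestation group (LG) 140 d after mating, with 3 goats per stage, different goats in each stage and 1 small RNA library per goat. No animal was treated, and the stage is the labelled difference between the groups. Anything else that went with the stage, such as the time of sampling, cannot be told apart from it. Whole mammary tissue from the same udder side was used after slaughter, so each value is an average over epithelial, stromal, blood vessel and immune cells, and fewer cells of a type and less RNA per cell cannot be told apart.

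A miRNA is cut from a hairpin precursor whose arms give a 5p and a 3p mature strand, and usually 1 of the pair is preferred for loading into an Argonaute protein. The loaded strand pairs with messenger RNAs mainly through its seed, near its 5′ end, and lowers their translation or stability. Related miRNAs are grouped here by name into families, with both arms of a hairpin in the same group, or into genomic clusters of neighbouring hairpins, which are often transcribed together. In the mammary gland, miR-148a is the best known miRNA of milk and the lactating epithelium, the miR-200 family marks epithelial cells, and the miR-199/miR-214 and miR-143/miR-145 clusters are known from fibroblasts and smooth muscle-like cells.

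The study followed a pair of miRNAs, chi-miR-345-3p and also chi-miR-423-3p, as candidate regulators of IGF1R, the receptor of insulin-like growth factor 1, and both were lower in DP than in LG (values are given below with their group). The forward primers designed for quantitative PCR of both miRNAs, 18 and 17 bases long, are shown as the sequences at hand for members of this comparison. They are written 5′ to 3′ as DNA and are not the whole mature sequences. Which of their bases belong to the measured strand was not checked, so they may hold bases that the strand does not have.
chi-miR-345-3p: gccctgaactaggggtct
chi-miR-423-3p: gcagagctcggtctgag

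The libraries held 13672653, 23392916 and 22430144 counts in DP and 25441169, 21301913 and 34378995 counts in LG, and 3 counts, the most that a count of 0 allows, came to between 0.0873 and 0.219 CPM (counting error only). The DP goats differed more from each other than the LG goats did. Over the 304 members with a mean of at least 10 CPM, the median SD between the goats on the log2 scale was 0.48 in DP and 0.20 in LG, and it was larger in DP for 239 of them. DP replicate 1, the shallowest library, stood apart most often, with 51 of these members more than 2-fold above and 37 more than 2-fold below both other DP libraries. The 10 most abundant miRNAs took between 68.4% and 68.6% of the counts in DP and between 75.5% and 78.5% in LG. Levels are CPM after TMM scaling, as mean ± SD of 3 goats where a mean is given, and changes are given as the log2 of the fold change, DP relative to LG (log2FC), with the standard error (SE) from edgeR's test.

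Of the 696 miRNAs tested in the series, 31.5% were differentially expressed (DE-miRNAs) in DP vs. LG, 21.6% higher and 9.91% lower in DP, where edgeR's quasi-likelihood test gave an adjusted p below 0.05 with a change of over 2-fold. Among the 672 members, 217 were DE-miRNAs, 150 higher and 67 lower in DP. The limit of 0.5 CPM was reached in all 6 libraries by 519 members, in every DP and no LG library by 10 and in every LG and no DP library by 8. These last 18 entered through the stage where they were high, so the 9 calls higher and 7 calls lower among them were fixed in part by the limit. The known miRNAs accounted for much of the excess of rises, with 29% of them higher and 8.22% lower, whereas the predicted miRNAs split nearly evenly, with 44 higher and 37 lower of 307. Every library of DP lay above or below every library of LG for 44.7% of the 696 miRNAs tested, above for 27.7% and below for 17%. The calls were not limited to rare miRNAs. Of the 55 members with a mean of at least 1000 CPM, 26 were higher and 7 lower, and of the 17 with at least 10000 CPM, 9 were higher and 2 lower. The split depended on the scaling of the libraries, since 69.1% of the calls were higher in DP with TMM, 56.7% with DESeq2's size factors, 59.4% with the upper quartile, 58.6% by library size and 54.6% with TMM after removal of chi-miR-148a-3p. The median log2FC of all members was 0.20 with TMM and between −0.10 and 0.05 with these other scalings, so the members of a family are read below against that median.

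**Figure D1:**
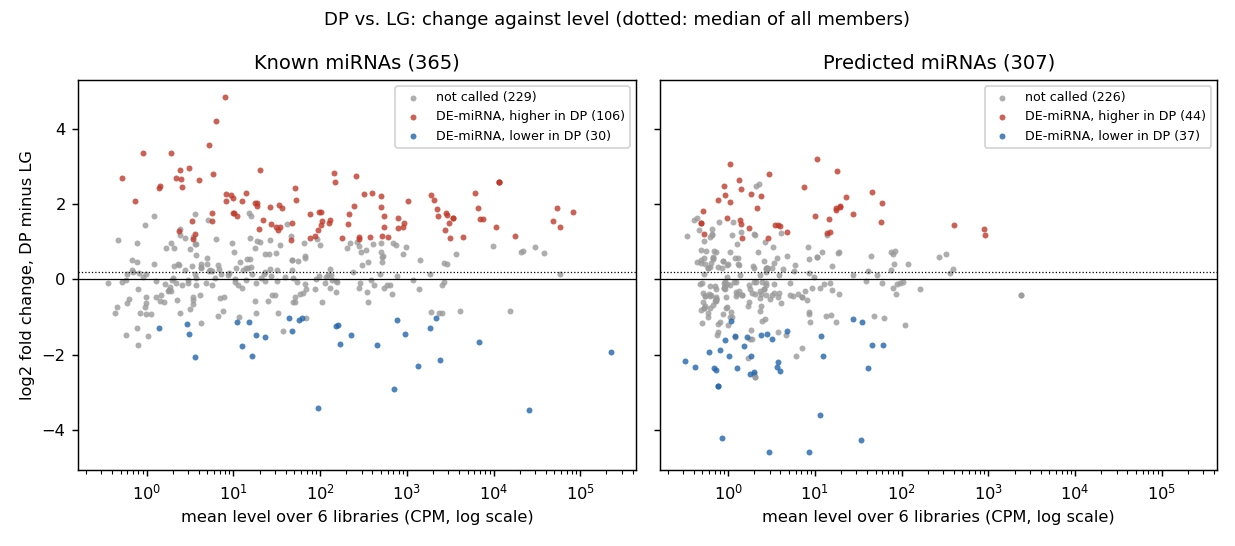
Log2 fold change (DP minus LG) of each member against its mean level over the 6 libraries on a log axis, for known (left) and predicted (right) miRNAs, with DE-miRNAs in colour. Rises outnumber falls among the known miRNAs (29% against 8.22%) at low and high levels, while the 307 predicted miRNAs are mostly rare and split 44 against 37.

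In 3 families known from the secretory epithelium, miR-148/miR-152, miR-30 and miR-200, some members were lower in DP and none was higher. The miR-148/miR-152 family took 9.79% ± 1.06 (SD, n = 3) of the counts in DP and 42.9% ± 2.73 (SD, n = 3) in LG. Its leading member, chi-miR-148a-3p, had 92907, 98734 and 86208 CPM in the 3 DP libraries and 379248, 375131 and 306853 CPM in the LG libraries. The stages lay far apart, with a log2FC of −1.93 (SE 0.21, adjusted p = 0.000159), although this was still 1 of the most abundant miRNAs in DP. The other arm of the same hairpin, chi-miR-148a-5p, changed by −1.71 (SE 0.26, adjusted p = 0.000818). The related chi-miR-148b-3p, encoded on another chromosome, had 1624 ± 279.7 CPM in DP and 3040.5 ± 151.9 CPM in LG and did not overlap between the stages. With a log2FC of −0.90 (adjusted p = 0.00581) it stayed under the limit on the fold change with TMM, but it was called lower with DESeq2 and the other scalings.

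The largest falls of known miRNAs came from 1 stretch of chromosome 14. The genes of chi-miR-30a (chromosome 14 from 92200094 to 92200200, ARS1.2) and chi-miR-30f (from 92162547 to 92162630) lie close together outside other annotated genes, and all 4 of their mature arms fell. The level of chi-miR-30a-5p was 3315, 3555 and 5776 CPM in DP against 51262, 43151 and 46125 CPM in LG. This was an 11.1-fold lower level in DP, with a log2FC of −3.47 (SE 0.27, adjusted p = 2.16e-05). chi-miR-30a-3p fell by 2.92 on the log2 scale, chi-miR-30f-3p by 3.41 and chi-miR-30f-5p by 2.32. Members of the miR-30 family are known regulators of epithelial differentiation. Of its 11 members, 5 were lower and none higher in DP, with a median of −0.58, and the fifth call was chi-miR-30e-5p (537, 254 and 707 CPM in DP, 1106, 1133 and 911 CPM in LG). chi-miR-30c-5p, whose gene lies beside that of chi-miR-30e within NFYC on chromosome 3, had 1953 ± 159 CPM in DP and 1782 ± 266 CPM in LG, a difference within the spread (log2FC 0.13, adjusted p = 0.676). As a whole the family took 0.842% ± 0.160 of the counts in DP and 6.53% ± 0.456 in LG (SD, n = 3), where chi-miR-30a-5p alone took 5.64%.

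In the miR-200 family, which represses the ZEB factors and so keeps epithelial identity, all 5 members had every DP library below every LG library, where 17% of the 696 tested miRNAs did so. The most abundant was chi-miR-200b, with 13175, 11782 and 7792 CPM in DP and 20675, 19287 and 19252 CPM in LG. It did not reach the limit with TMM (log2FC −0.85, adjusted p = 0.0130). chi-miR-200a, cut from the same cluster on chromosome 16, did pass with 3856, 2940.4 and 2960 CPM in DP and 10161, 9366 and 11656 CPM in LG (log2FC −1.68, SE 0.20, adjusted p = 0.000226). With chi-miR-141 (−1.73) and chi-miR-429 (−1.48), 3 of the 5 were DE-miRNAs, and all 5 were under DESeq2, the other scalings and 4 of the 6 fits without 1 library (those without DP replicate 1 or 2 or LG replicate 2 or 3). The summed level of these 5 epithelial markers was 13064 to 20811 CPM in DP and 34218 to 37558 CPM in LG, and the cause of the shift was not tested. The marker miR-205, also set for the epithelium, was not found among the listed miRNAs. The other epithelial cluster, miR-183/miR-96/miR-182, had no DE-miRNA among its 3 members, and their median was 0.89. chi-miR-182 had 952, 1126 and 626 CPM in DP and 642, 432 and 321 CPM in LG, and the stages overlapped (adjusted p = 0.0731).

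**Figure D2:**
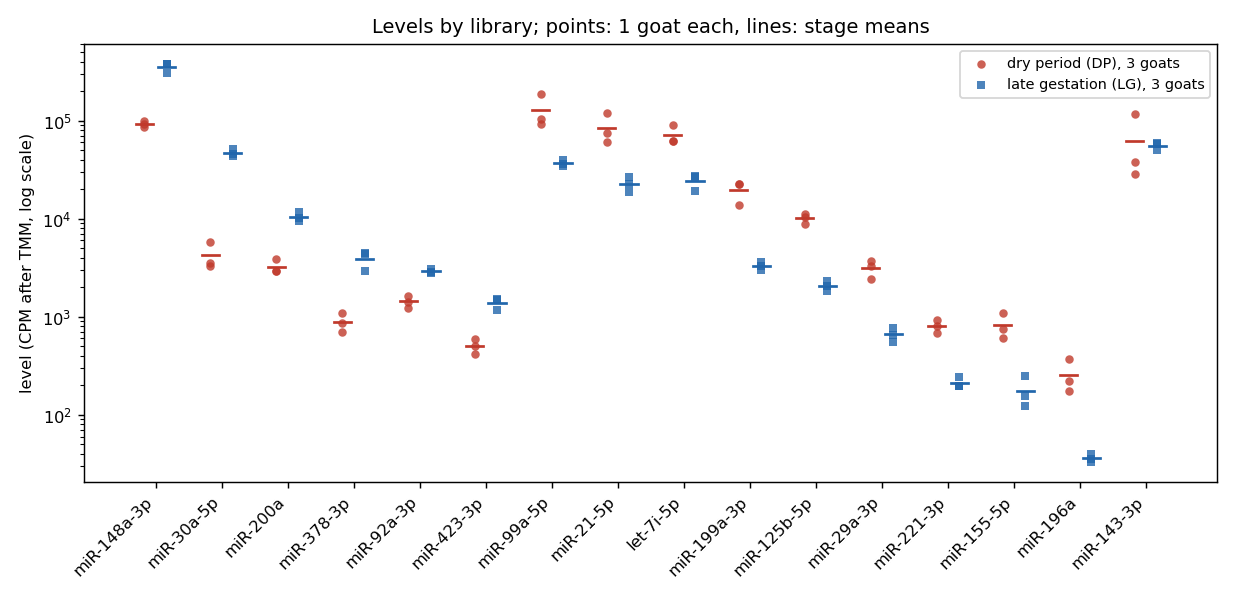
Levels (CPM after TMM, log axis) of 16 miRNAs in each of the 3 DP (circles) and 3 LG (squares) libraries, with short lines at the stage means. The stages do not overlap for the first 15, lower in DP for 6 of them and higher for 9, while the DP libraries of miR-143-3p lie on both sides of LG, from 28796 to 117011 CPM.

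The miR-17-92 cluster and its relatives, which promote the cell cycle and are high in dividing cells, had calls in 1 direction. Of 20 members, 6 were lower in DP and none higher, 17 had a fold change below 0, and the median was −0.63. The number of lower members was between 4 and 9 across all the alternative settings, with 4 in the fit without LG replicate 1. chi-miR-92a-3p was the most abundant of those called, with 1225, 1642 and 1423 CPM in DP and 3060.2, 2879 and 2765 CPM in LG (log2FC −1.02, SE 0.21, adjusted p = 0.00375). The largest fall was that of chi-miR-363-3p, from 34.1 ± 5.18 CPM in LG to 11.7 ± 1.87 CPM in DP (log2FC −1.54). These falls came from 2 of the related clusters. In the miR-17-92 cluster on chromosome 12, 4 of 11 mature members were lower and the log2FC of all 11 lay between −1.45 and −0.39, and in its copy with chi-miR-363 and chi-miR-20b on a scaffold of unknown place 3 of 4 were lower, counting chi-miR-92b (−1.29), which is in no list here. The miR-106b-25 cluster on chromosome 25 had no call among its 6 members, and its chi-miR-25-3p had 2632 ± 976.8 CPM in DP and 2778 ± 463.6 CPM in LG.

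Among miRNAs of lipid metabolism, chi-miR-378 stood out. Its gene (chromosome 7 from 49342624 to 49342733) lies within PPARGC1B, which encodes a coactivator of oxidative metabolism. chi-miR-378-3p had 691, 872 and 1082 CPM in DP and 4404, 2911 and 4439 CPM in LG, a log2FC of −2.15 (SE 0.26, adjusted p = 0.000226). chi-miR-378-5p changed alike, by −2.04 (SE 0.30, adjusted p = 0.000628). chi-miR-33a, which lies within the sterol regulator gene SREBF2, was rare, and neither its 5p arm (−1.47, adjusted p = 0.0704) nor its 3p arm (0.40, adjusted p = 0.417) was called in the main fit. With DESeq2 and the other scalings the 5p arm was called lower. The pair chi-miR-103-3p and chi-miR-107-3p, known from insulin signalling, had no call, and chi-miR-103-3p held 2413 ± 344.7 CPM in DP and 2679 ± 396.1 CPM in LG.

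The study named the 3p arms of miR-345, miR-423 and miR-1307 and the 5p arm of miR-340 as known miRNAs predicted to target IGF1R. That choice was made on libraries that include these and so is no independent evidence of direction. With the other arms of these hairpins, which the study did not name, the named arms gave 8 members, of which 4 were lower in DP and none was higher. chi-miR-423-3p had 499.5, 420.03 and 587 CPM in DP and 1474, 1511 and 1165 CPM in LG. Its fall of 1.46 on the log2 scale (SE 0.22, adjusted p = 0.000825) exceeded the spread in both stages, and it was called in every alternative setting. The other arm of that hairpin, chi-miR-423-5p, overlapped between the stages (log2FC −0.23, adjusted p = 0.444). chi-miR-345-3p had 28.5, 31.7 and 24.7 CPM in DP and 53.5, 53.1 and 67.9 CPM in LG, which gave a log2FC of −1.04 (SE 0.26, adjusted p = 0.0104), close to the limit. The other arm chi-miR-345-5p (−1.19) and chi-miR-1307-3p (−1.09) were also called, while chi-miR-340-5p was not (log2FC −0.33, adjusted p = 0.415).

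All 8 members of the miR-199/miR-214 cluster family were DE-miRNAs higher in DP, with a median log2FC of 2.34, and all 8 were called in every alternative setting. These miRNAs are known from mesenchymal cells, and the genes of chi-miR-199a and chi-miR-214 lie 1 after the other on chromosome 16 (38128641 to 38134541) within DNM3. chi-miR-199a-3p had 13821, 22697 and 22839 CPM in DP and 3021, 3293 and 3591 CPM in LG (log2FC 2.58, SE 0.31, adjusted p = 0.000226). chi-miR-214-3p rose from 54.2, 71.7 and 75.0 CPM in LG to 351, 526 and 476 CPM in DP, a log2FC of 2.75 (SE 0.34, adjusted p = 0.000242). No DP library of either came near an LG library. The counts of chi-miR-199b and chi-miR-199c were equal in every library on both arms, so the same reads were counted for both names and the 8 members are not 8 separate measurements.

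The miR-29 family, which represses collagens and other matrix proteins, likewise had all 6 members higher in DP, with a median of 2.13. chi-miR-29a-3p had 2419.8, 3286 and 3686 CPM in DP and 773, 558 and 653 CPM in LG (log2FC 2.24, SE 0.23, adjusted p = 0.000134). chi-miR-29b-3p had 269, 187.8 and 309 CPM in DP and 49.0, 41.1 and 37.4 CPM in LG, a 6.01-fold higher level. In the members of the family the lowest DP library lay above the highest LG library, as it did for 27.7% of the 696 tested miRNAs. The smallest rise, that of chi-miR-29c-5p (1.04), fell under the limit with the other scalings, down to 0.72 after removal of chi-miR-148a-3p, and between 4 and 6 members were called across the settings.

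chi-miR-21-5p, a growth-related miRNA that is high in fibrotic and inflamed tissue, had 60425, 74483 and 118914 CPM in DP and 18795, 26636 and 22498 CPM in LG. It was the most abundant miRNA of DP replicate 3, and its rise (log2FC 1.90, SE 0.30, adjusted p = 0.000976) was called in every setting. The miR-143/miR-145 cluster of smooth muscle and myoepithelial cells gave another picture. chi-miR-143-3p had 28796, 38070.4 and 117011 CPM in DP and 57676, 50025 and 58842 CPM in LG, so that 2 DP libraries lay below LG and DP replicate 3 above it. No difference beyond the spread was found (log2FC 0.14, SE 0.45, adjusted p = 0.832), and without DP replicate 3 the value was −0.95. The median of the 4 members was 0.69 and turned to −0.53 without that library. Together the 10 stromal and smooth muscle markers (miR-199a, miR-199b, miR-214, miR-143 and miR-145) had 7 members higher and a median of 1.68, and their summed level was 67309 to 183754 CPM in DP and 63044 to 70938 CPM in LG. The counts of chi-miR-199a-3p and chi-miR-199b-3p were nearly equal in each library and may be largely the same reads, and without the latter the sums were 53503 to 160943 CPM in DP and 59753 to 67921 CPM in LG. In the miR-143/miR-145 cluster chi-miR-145-3p alone was called, with 854, 1067 and 1638 CPM in DP and 472, 395 and 288 CPM in LG (log2FC 1.62, SE 0.29, adjusted p = 0.00184).

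The let-7 family, with miR-98, represses growth factors and cell cycle genes, and it took 22.1% ± 7.01 of the counts in DP and 11.6% ± 0.548 in LG (SD, n = 3), a share that also depends on the fall of chi-miR-148a-3p. The arms behaved differently. All 9 of the 5p strands, which are the loaded ones, had every DP library above every LG library, where 27.7% of the 696 tested miRNAs did so. Of these strands 5 were called, and their median was 1.15. Of the 9 strands from the 3p arm, 1 was called and the median was −0.01. The most abundant, chi-let-7i-5p, had 91010, 62004 and 62150 CPM in DP and 27147, 26892 and 19118 CPM in LG (log2FC 1.56, SE 0.25, adjusted p = 0.000976). chi-let-7f-5p and chi-let-7g-5p, next in level, had smaller log2FCs of 0.71 and 0.85 and were not called. Without DP replicate 1 the calls in the family went from 6 to 3, and without DP replicate 3 there were 6 higher and 1 lower.

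**Figure D3:**
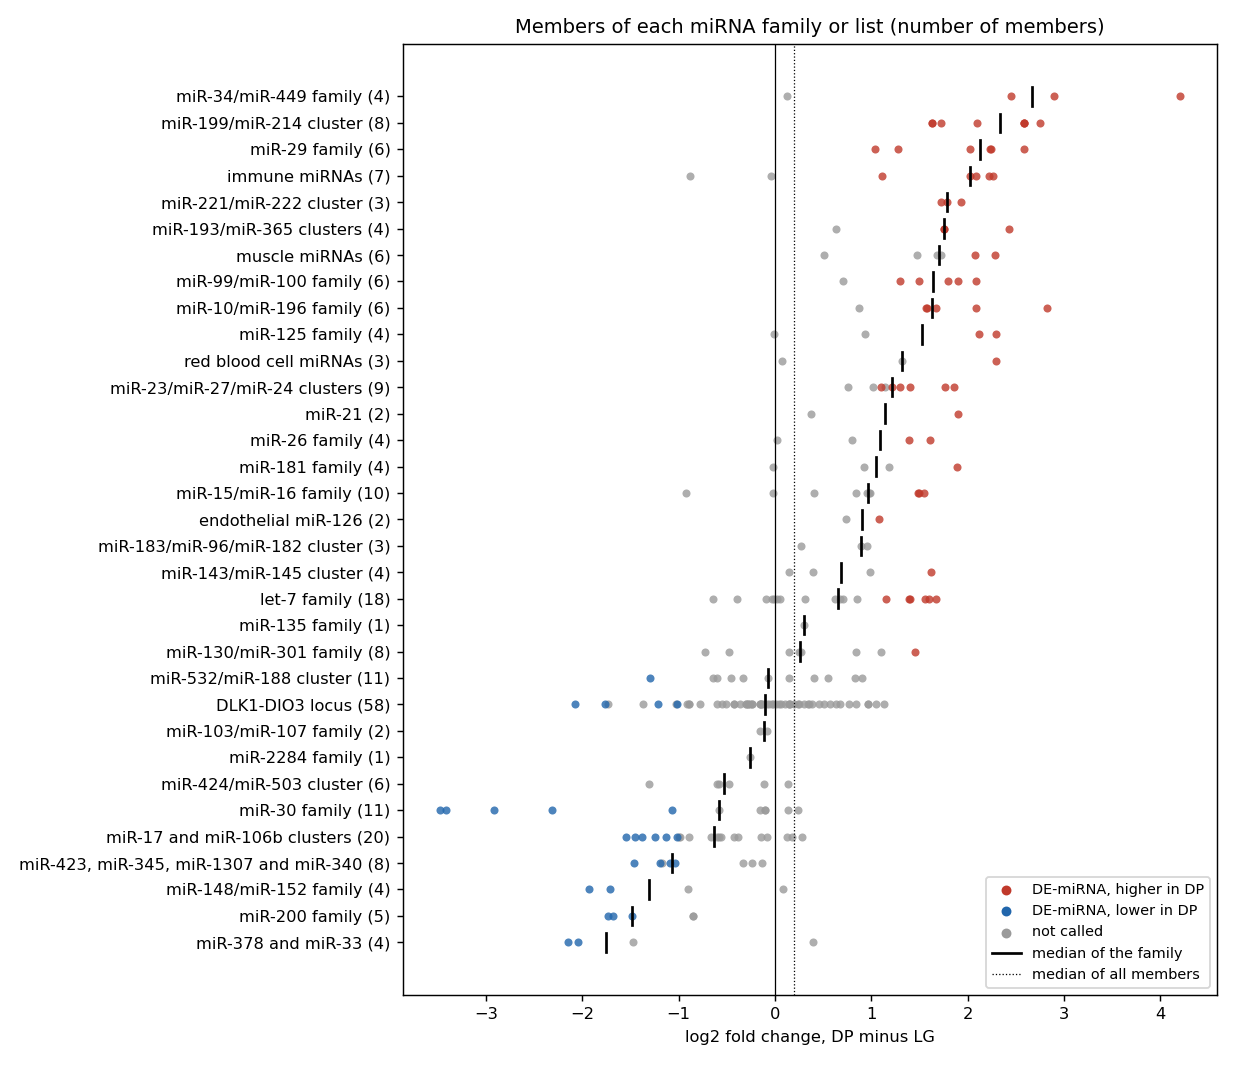
Log2 fold change (DP minus LG) of the members of 33 families and lists, sorted by their median (black bar), with the number of members in brackets, DE-miRNAs in colour and the median of all 672 members as a dotted line. No family holds calls in both directions in this fit, and the medians run from −1.76 for miR-378 and miR-33 to 2.67 for miR-34/miR-449.

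The miR-99/miR-100 and miR-125 families, which in mammals share polycistrons with let-7, also had calls higher in DP and none lower. chi-miR-99a-5p had 104851, 185359 and 92098 CPM in DP and 36192, 34794 and 39242 CPM in LG (log2FC 1.79, SE 0.30, adjusted p = 0.00130), and it was the most abundant miRNA of DP replicates 1 and 2. chi-miR-125b-5p had 8784, 10485 and 11262 CPM in DP and 2051, 1846 and 2332 CPM in LG (log2FC 2.29, SE 0.24, adjusted p = 0.000134). Both genes lie on chromosome 1 within the long non-coding RNA gene LOC102176916, as does that of chi-let-7c, whose 5p strand changed by 1.60. In the miR-99/miR-100 family 5 of 6 members were higher, with a median of 1.64, one of them the rare chi-miR-100-3p, which reached the limit on low values in DP alone (25, 17 and 28 counts in DP, 11, 7 and 8 counts in LG), and 2 or 3 were called in the fits without DP replicate 2 or 3 or without any 1 LG library. In the miR-125 family 2 of 4 were higher in every setting. Their 5p strands rose by over 2 on the log2 scale, while chi-miR-125b-3p had 134.9 ± 14.1 CPM in DP and 136 ± 16.4 CPM in LG.

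The miR-10/miR-196 family, whose genes lie in the Hox clusters, had 5 of 6 members higher in DP, with a median of 1.63, and these 5 were called in every setting. chi-miR-196a had 369, 221.4 and 177 CPM in DP and 39.7, 33.1 and 35.5 CPM in LG, a 7.08-fold higher level (log2FC 2.82, SE 0.32, adjusted p = 0.000197). chi-miR-10a-5p rose by 1.68 on the log2 scale. chi-miR-10b-5p, the most abundant of the family, had 8513, 18426 and 11223 CPM in DP and 7653, 7787 and 5323 CPM in LG, which did not overlap but stayed under the limit (log2FC 0.88, adjusted p = 0.0353).

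The miR-221/miR-222 cluster, which represses the inhibitor p27, had all 3 members higher in every setting, with a median of 1.79. chi-miR-221-3p had 932, 801 and 677 CPM in DP and 194.8, 244 and 194 CPM in LG (log2FC 1.93, SE 0.22, adjusted p = 0.000209). The miR-15/miR-16 family, which restrains cyclins and thus acts the other way, had 3 of 10 members higher and none lower, with a median of 0.97, a share near the 29% of all known members that were higher. chi-miR-16a-5p had 3832, 6220.3 and 3556 CPM in DP and 1834, 1655 and 1360 CPM in LG (log2FC 1.49, SE 0.25, adjusted p = 0.00134), and chi-miR-195-3p and chi-miR-497-5p, from 1 cluster on chromosome 19, changed by 1.49 and 1.55.

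In the miR-26 family chi-miR-26a-5p was among the 5 most abundant miRNAs of the comparison. It had 61154, 137482 and 53366 CPM in DP and 31823, 33157 and 31238 CPM in LG, so DP replicate 2 held over 2 times the level of the other DP libraries. The log2FC of 1.39 (SE 0.33, adjusted p = 0.00769) was 0.69 (adjusted p = 0.0191 in edgeR's test) without that library, and that of chi-miR-26b-5p went from 1.61 to 0.98, so that no member of the family was called. Without LG replicate 3 chi-miR-26a-5p missed the threshold as well (1.18, adjusted p = 0.0501). The miR-23/miR-27/miR-24 clusters, known from vessels and fat cells, had 6 of 9 members higher and a median of 1.22, and again the goats differed. All 9 members were lowest in DP replicate 1 among the DP libraries. chi-miR-23a, for example, had 1543, 4853 and 3978 CPM in DP and 905, 901 and 1062 CPM in LG (log2FC 1.85, SE 0.35, adjusted p = 0.00240). Without DP replicate 1 the number of calls was 8, and without any other DP or LG library it was 1 or 2. chi-miR-27b-3p, the most abundant, had 27147 ± 12362 CPM in DP and 16009 ± 2934 CPM in LG and was not called.

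Smaller families were mixed. In the miR-193/miR-365 clusters 3 of 4 members were higher with a median of 1.76, and this fell to 1 called member without DP replicate 3 or without any 1 LG library. The lowest median in a fit without 1 library was 0.80. chi-miR-193a and chi-miR-193b-3p had nearly the same counts in each library, so they may share reads. chi-miR-181d was the 1 member called in the miR-181 family (77.7, 35.8 and 59.1 CPM in DP, 16.9, 11.3 and 18.3 CPM in LG), while the more abundant chi-miR-181b-5p was level (log2FC −0.02, adjusted p = 0.961). chi-miR-130a-3p, a repressor of the fat cell regulator PPARG, had 38.3, 39.5 and 40.7 CPM in DP and 11.5, 16.3 and 15.3 CPM in LG (log2FC 1.46, SE 0.27, adjusted p = 0.00214). It was the 1 call among the 8 members of the miR-130/miR-301 family, whose median of 0.26 fell to −0.05 after removal of chi-miR-148a-3p, and which had 1 higher and 1 lower without DP replicate 1. The miR-135 family had 1 member here, chi-miR-135a, at 15.4 ± 2.21 CPM in DP and 12.6 ± 3.96 CPM in LG. Its log2FC of 0.30 also fell below 0, to −0.02, after removal of chi-miR-148a-3p. The miR-2284 family had 1 rare member (chi-miR-2284c, adjusted p = 0.673), and no member of the miR-132/miR-212 cluster was listed.

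The p53-linked miR-34 family had the highest median, 2.67, and its size rested largely on DP replicate 1. chi-miR-34c-5p had 88.6, 11.3 and 7.63 CPM in DP and 4.32, 4.86 and 5.26 CPM in LG. All DP libraries were above LG, but DP replicate 1 set the size, since the log2FC of 2.89 (SE 0.79, adjusted p = 0.0161) was 0.79 (adjusted p = 0.0713 in edgeR's test) without it, and the call was also lost without any 1 LG library. chi-miR-34b-3p, from the same transcript region on chromosome 15, had 21.3, 12.2 and 2.22 CPM in DP and at most 0.770 CPM in LG, and was called in every setting (log2FC 4.21, SE 0.78, adjusted p = 0.00205). chi-miR-34a, encoded elsewhere, overlapped between the stages (0.13, adjusted p = 0.832).

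Markers of other cell types that the tissue holds had calls in the direction of DP, though many were not called. Of the immune miRNAs, 5 of 7 were higher, with a median of 2.02. chi-miR-155-5p of activated leukocytes had 744, 1097 and 611 CPM in DP and 156, 247 and 123 CPM in LG (log2FC 2.22, SE 0.32, adjusted p = 0.000628). chi-miR-150 of lymphocytes had 643, 792 and 139 CPM in DP and 105.8, 109 and 114 CPM in LG, so DP replicate 3 was much nearer to LG than the others (log2FC 2.26, SE 0.51, adjusted p = 0.00674). Both arms of chi-miR-146b were not called, the 3p arm at −0.04 and chi-miR-146b-5p with 1347 ± 457 CPM in DP and 2483 ± 2219 CPM in LG, where LG replicate 1 held 5007 CPM and the others 1604 and 838 CPM. The number called was 2 without DP replicate 2 and without LG replicate 2 or 3. All 4 members among the immune markers miR-150, miR-155 and miR-223 were higher, with a summed level of 778 to 1968 CPM in DP and 246 to 363 CPM in LG, while the marker miR-142 was not analysed here.

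The endothelial pair from EGFL7 rose less. chi-miR-126-3p had 18740.0, 31555 and 27890.2 CPM in DP and 16182, 14550 and 16164 CPM in LG (log2FC 0.74, adjusted p = 0.0331), above LG in each DP library and under the limit on the fold change. Its partner chi-miR-126-5p passed at 1.08, though not with the other scalings, where it was between 0.77 and 0.94. It was called in 3 of 16 alternative settings, and the call was also lost without DP replicate 2 or 3 or any 1 LG library. Both strands summed to between 19028 and 31975 CPM in DP and between 14716 and 16363 CPM in LG. Red blood cell miRNAs varied between goats, with sums of 122 to 1284 CPM in DP and 87.1 to 168 CPM in LG. These sums cover miR-144 and miR-451, while the marker miR-486 was not found among the listed miRNAs. chi-miR-451-5p had 121, 1279 and 569 CPM in DP and 85.0, 153 and 164 CPM in LG, and its log2FC of 2.29 (SE 0.64, adjusted p = 0.0176) was 1.35 (adjusted p = 0.133 in edgeR's test) without DP replicate 2. The call was also lost without any 1 LG library. Without DP replicate 3 the red blood cell members had 1 call in each direction.

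Of the 6 muscle miRNAs, 5 were highest in DP replicate 3 among the DP libraries, and their sum lay above LG in each DP goat. chi-miR-1 had 876, 949 and 3224 CPM in DP and 382, 462 and 357 CPM in LG, and its log2FC of 2.07 (SE 0.45, adjusted p = 0.00552) was 0.95 without DP replicate 3. chi-miR-206, a miRNA of skeletal muscle, had 14.3, 25.1 and 30.9 CPM in DP and 7.41, 5.33 and 1.72 CPM in LG (log2FC 2.29, SE 0.56, adjusted p = 0.00953). The summed level of the 6 muscle members was 971, 1071 and 3448 CPM in DP and between 419.6 and 531 CPM in LG. DP replicate 3 was thus highest for muscle, the miR-143/miR-145 cluster and chi-miR-21-5p at once, and the part of tissue composition in these values was not tested. Without DP replicate 1 the number of muscle members called was 5 instead of 2, and without DP replicate 3 it was 1.

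The imprinted DLK1-DIO3 locus on chromosome 21, which holds one of the largest miRNA clusters of mammals, was split among the DP goats. Of 58 members, 4 were lower in DP and none higher, and the median was −0.10. Over the 696 tested miRNAs 9.91% were lower and 21.6% higher, so lower calls were not more frequent in the locus. The DP goats lay on both sides of LG. DP replicate 1 lay above every LG library for 40 of the 58 members, whereas DP replicate 2 lay below every LG library for 43 and DP replicate 3 for 42. In DP replicate 1 the members were at a median of 1.37 on the log2 scale above the mean of the other DP libraries. Their summed level was 9827, 4134 and 3854 CPM in DP and 5919, 7818 and 8616 CPM in LG.

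chi-miR-379-5p had 1992, 671 and 856 CPM in DP and 977, 1182 and 1405 CPM in LG, and no difference was found over the 3 goats (log2FC −0.02, adjusted p = 0.968). chi-miR-127-3p, near the other end of the locus within RTL1, had 2541, 1638 and 1096 CPM in DP and 2456, 3462 and 3879 CPM in LG (log2FC −0.89, adjusted p = 0.0414). In the fit without DP replicate 1 it was called at −1.44, and 23 members of the locus were then lower in DP instead of 4. The calls in the locus numbered 7 without DP replicate 2, 9 without LG replicate 1 and up to 10 with other scalings, all lower, and without DP replicate 3 there were 5 lower and 1 higher. chi-miR-410-3p, chi-miR-3959-3p, chi-miR-409-3p and chi-miR-495-3p were the 4 called over all goats, at log2FCs of −2.08, −1.76, −1.21 and −1.02.

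Likewise the miR-424/miR-503 cluster on chromosome X, known from involution of the mouse mammary gland, had no call among its 6 members (median −0.53) while the DP goats spanned a wide range. chi-miR-424-5p had 44.2, 12.5 and 3.62 CPM in DP and 22.3, 24.4 and 43.2 CPM in LG. All 6 members were highest in DP replicate 1 and lowest in DP replicate 3, and without DP replicate 1 the number lower in DP was 3. The summed level of the cluster ran from 46.2 to 496 CPM in DP and from 242 to 357 CPM in LG. In the miR-532/miR-188 cluster, placed on chromosome X and on a scaffold of unknown place, 1 of 11 members was called, the rare chi-miR-502b-5p (−1.30, adjusted p = 0.0423), and it was not called without DP replicate 2 or LG replicate 3.

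**Figure D4:**
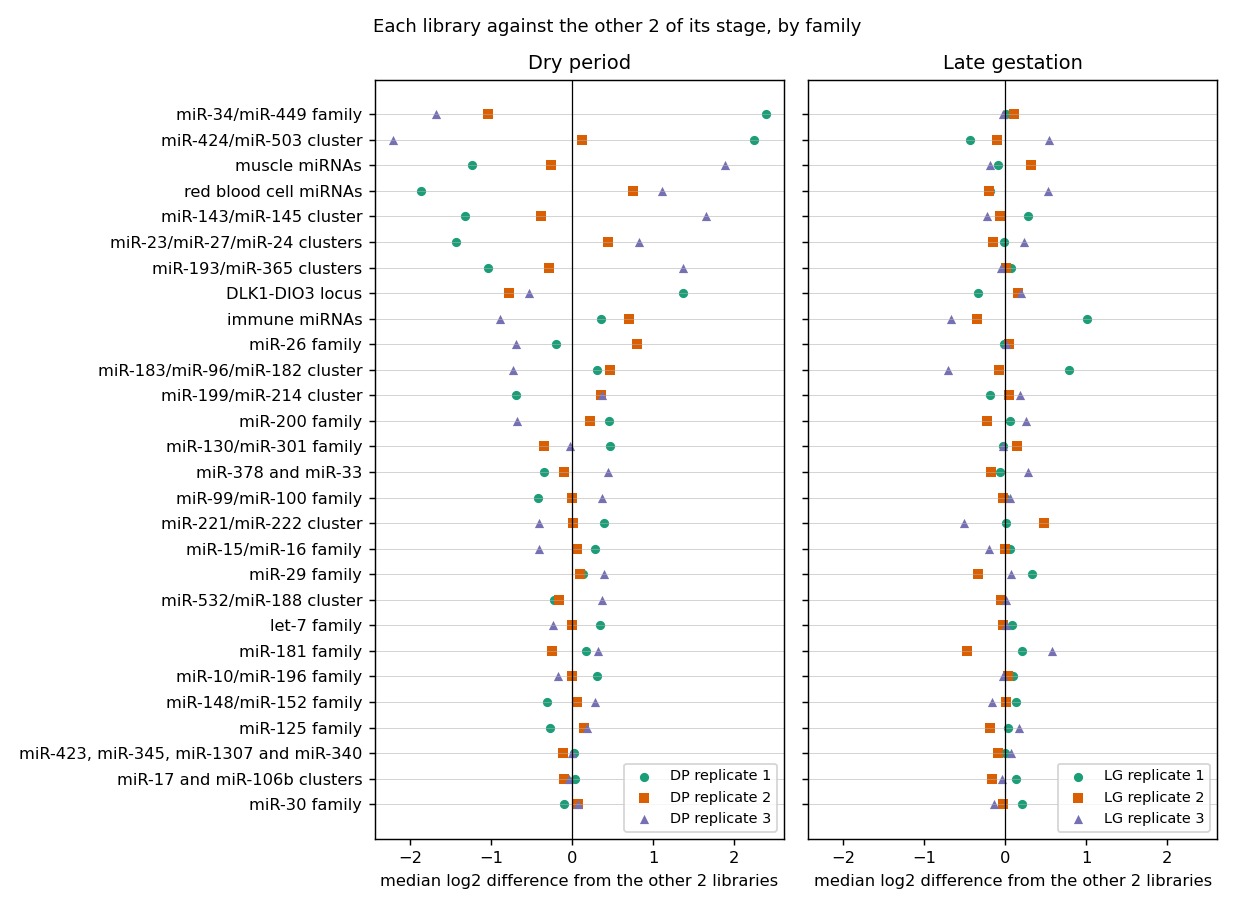
Median log2 difference of each library from the mean of the other 2 libraries of its stage, for each family with at least 3 members, in DP (left) and LG (right). DP replicate 1 is high for miR-34/miR-449, miR-424/miR-503 (2.25) and the DLK1-DIO3 locus (1.37) and low for miR-23/miR-27/miR-24, DP replicate 3 is high for the muscle miRNAs (1.89) and miR-143/miR-145 (1.65), and the LG libraries lie closer together.

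Both arms of a hairpin come from the same precursor, so their changes were set side by side. Among the hairpins with both arms measured here, 60 had both at a mean of at least 10 CPM. Both arms were higher in DP for 14 of these, both lower for 4, 1 was called for 16 and none for 26, and no hairpin had calls in opposite directions. The 14 include chi-miR-199b and chi-miR-199c, which have equal counts on both arms, and chi-miR-199a, whose 3p arm is nearly equal to theirs, so these hairpins are not separate measurements. The arms still differed, by a median of 0.68 on the log2 scale, and 13 pairs had opposite signs. The largest gap was in chi-miR-125b, where the 5p arm rose by 2.29 and the 3p arm was level (−0.01). In chi-miR-3959 the 3p arm fell by 1.76, and the 5p arm had 635, 197 and 210 CPM in DP and 227, 296 and 273 CPM in LG. chi-miR-335, within the imprinted gene MEST, came next, but its 5p arm had 48.0, 6.11 and 16.4 CPM in DP and 9.09, 5.13 and 6.59 CPM in LG and was not called (log2FC 1.76, adjusted p = 0.0641).

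**Figure D5:**
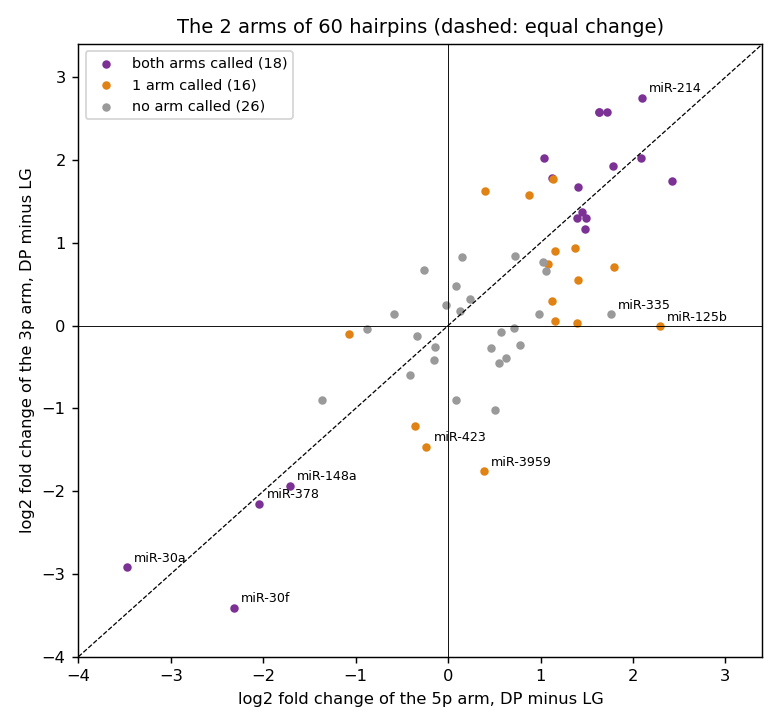
Log2 fold change (DP minus LG) of the 5p arm against that of the 3p arm for 60 hairpins with both arms at a mean of at least 10 CPM, coloured by the number of arms called, with the line of equal change dashed. The 18 hairpins with both arms called lie in the upper right (14, with miR-199b and miR-199c at the same point) or the lower left (4), and miR-125b, miR-3959 and miR-335 lie farthest from the line.

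Neighbouring genes were also set side by side. The annotation gave 37 groups of known miRNA genes at most 10 kb apart. Of these, 18 had members higher and none lower in DP, 7 had members lower and none higher, 12 had no call, and none had both. Some of these groups held a single called member, so that they could not have had both. The strand of the genes was not used, and members of a group that come from 1 transcript are not independent measurements. chi-let-7e and chi-miR-99b on chromosome 18 (58704941 to 58705204) had all 4 of their mature strands higher, with a median of 1.45, and chi-miR-105a and chi-miR-767 both rose (2.96 and 3.56).

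The predicted miRNAs were mostly rare, with a median mean level of 2.02 CPM against 27.2 CPM for the known ones. Of the 69 with a mean of at least 10 CPM, 18 were higher and 9 lower in DP. The largest fall among these was that of NC_030810.1_4301, named by the sequence it was predicted on, with 5.46, 1.65 and 2.92 CPM in DP and 59.9, 59.1 and 73.7 CPM in LG. At a log2FC of −4.27 (SE 0.45, adjusted p = 0.000134) this exceeded the fall of any known miRNA called. NC_030828.1_26712 fell by 2.37, from 79.8, 60.1 and 67.5 CPM in LG to 12.0, 13.9 and 14.3 CPM in DP. The largest rise was that of NC_030815.1_11388, with 17.5, 27.5 and 12.6 CPM in DP and 0.755, 3.51 and 1.99 CPM in LG (log2FC 3.20, SE 0.53, adjusted p = 0.00120). NC_030809.1_1955 had 68.7 CPM in DP replicate 3 and 14.4 and 12.8 CPM in the others, and its log2FC of 2.87 was 1.41 (adjusted p = 0.0640 in edgeR's test) without that library. Except for this one, the predicted miRNAs named by the rule, 5 in each direction, kept their call in every setting, though whether they are processed by the miRNA pathway was not tested.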

How the data were processed

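Mature miRNAs were measured by small RNA sequencing of 18 to 30 nt fragments of total RNA (RNA integrity number above 8). After trimming, the authors mapped reads to goat assembly ARS1.2, called miRNAs with miRDeep2 beside those of miRBase, and deposited raw counts of reads per mature miRNA. The column that the authors deposited for LL replicate 3 held 2 values that were not whole, so it was treated as estimated counts and rounded. FastQC 0.11.9, cutadapt 4.2 and Bowtie 1.1.1 are named in the submitters' processing notes. The library totals give the precision of rare miRNAs, and intervals cover counting error only.

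DP was compared with LG with edgeR 4.0.16 in R 4.3.3 (TMM, quasi-likelihood test, Benjamini-Hochberg adjustment over 696 miRNAs that reached 0.5 CPM in 3 or more of 9 libraries). The fit held the 9 libraries of LL (240 d postpartum), DP and LG and no term other than stage. The members, families and lists were chosen with earlier results of these data known, so families are described by counts and medians and have no test. Named miRNAs are, per family, the most abundant and those with the largest rise and fall, the 10 known and 5 predicted DE-miRNAs with the largest rise and fall at a mean of at least 10 CPM and with no overlap, the 10 most abundant and the 3 hairpins whose arms differed most. Other members were named after their values were seen, to account for a family. No sequence table came with the counts, so seeds were not compared, and clusters were formed by distance without strand. As alternatives, DESeq2 1.42.0 and voom of limma 3.58.1 were run, with other scalings and filters, a fit of DP and LG alone, a replicate block and each DP or LG library left out. Nothing in the labels ties a library to a goat beyond the stage and number. In the main fit the p-values rest on a spread between samples that was estimated jointly over the 9 libraries, 3 per stage. This spread therefore does not follow the wider spread of DP alone.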

Additional observations from a re-analysis of the deposited data

How the results depend on the processing

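The number of DE-miRNAs was between 162 and 224 in the settings that kept all libraries and between 150 and 246 without 1 library, against 217. Higher in DP were 97 with no filter, 92 with at least 10 counts in every library (483 members tested), 99 with only DP and LG in the fit and 87 to 134 without 1 library, against 150. Lower in DP were 63 to 112 without 1 library, against 67. Predicted DE-miRNAs were 47 with at least 10 counts in every library and 52 to 89 without 1 library, against 81. Of the 217 calls, 121 were kept in every fit without 1 library and 96 in all settings, and 1 call changed sign, that of chi-miR-184 (4.83, and −0.97 without DP replicate 3). chi-miR-144-3p, not called at a log2 fold change of 0.07, ran from −2.25 to 0.54 without 1 library and was called lower without DP replicate 3, a fit that leaves DP libraries of 3 and 5 counts. With it, 16 named miRNAs that were not called changed sign in some setting, and chi-miR-450-5p was called without DP replicate 1. DESeq2 gave no adjusted p for chi-miR-34c-5p. A replicate block gave 147 higher and 74 lower. The numbers do not pair the goats, since same-numbered samples correlated at 0.047, −0.019 and 0.059 in their deviations and 1 of 3 DP samples correlated best with its own number. With 3 goats per stage and DP goats that differ from each other, changes of rare miRNAs and of families set by 1 goat are the least certain.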

Other observations

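Among the 113 known members that belong to no family or list above, 41 were higher and 3 lower in DP, with a median log2 fold change of 0.72. These counts are from the fit with TMM, in which 29% of all known members were higher and 8.22% lower, with a median of 0.40. The miRNAs given here were chosen after their values were seen. chi-miR-218, within the span of SLIT3, had 711, 779 and 1014 CPM in DP and 268, 239 and 280.1 CPM in LG (log2 fold change 1.67, SE 0.26, adjusted p = 0.000825 from edgeR). chi-miR-455-3p, within the collagen gene COL27A1, had 151.5, 177 and 147 CPM in DP and 48.7, 42.8 and 47.0 CPM in LG (log2 fold change 1.78), and chi-miR-140-5p, a miRNA of cartilage within WWP2, changed by 1.45. In these the DP libraries lay above LG. chi-miR-708-5p and chi-miR-3432-5p rose by 2.42 and 1.95. The 3 that fell were chi-miR-92b (−1.29), chi-miR-296-3p (−1.13) and chi-miR-582-5p (−1.49).

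The largest log2 fold change of any known member, 4.83 for chi-miR-184, came from 1 goat. It had 45.6 CPM in DP replicate 3 and at most 0.908 CPM in each of the other DP and LG libraries, and DP and LG overlapped, although the adjusted p was 0.0425 in edgeR's test. Without DP replicate 3 the value turned to −0.97 and was not called (adjusted p = 0.430).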
